A study of Mus musculus with 32 samples.

Results

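The genes described here are 49 interferon-stimulated and antigen processing genes, chosen by symbol from a list. The list was drawn up with earlier results of these data known, so shares set against all genes are descriptive. All 49 symbols were found in the 32 gene tables, which together hold 23236 symbols. For 44 of the 49, every library gave a record of the gene's own. Eif2ak2 shared its record with a neighbouring gene in 32 libraries, Tapbp in 20, Irf9 in 15, Ifit3 in 3 and Stat2 in 1, and such values were treated as missing.

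Total RNA was sequenced from the digestive tract of percc1-/- mice and of wild-type mice. Per the labels, the mutant allele replaced 1512 bp of chromosome 17 (25175032 to 25176543, on mm9 as the labels state it and not checked here) with a loxP site, and the Neomycin cassette used in targeting had been cut out with Cre. W4/129S6 ES cells carried the first copy. The strain background given for both genotypes is mixed 129SvEv and C57BL/6, and the line was bred between siblings. Each percc1-/- library had a wild-type partner matched for region and stage, which made 16 pairs from 32 libraries. Small intestine contributed 7 pairs: top part at P1, P5 and P15, and bottom part at P1, P5, P10 and P20. Stomach contributed 5, taken whole at P1 and P5 and as the bottom part at P10, P15 and P20. Large bowel contributed 3: colon together with rectum at P1, and at P5 a pair each from colon and from rectum. The last pair was whole gut at E14.5. The labels do not say whether regions of one stage came from the same animals, so the p-values may be too small. Those for genotype measure the spread between pairs. Those between organs, parts or ages measure the spread between libraries. The level of Percc1 itself is not analysed here.

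Interferons are secreted signals that bind receptors on the cell surface and, through JAK kinases, activate STAT proteins. Complexes of STAT proteins bind DNA elements called the interferon-stimulated response element (ISRE), with IRF9 as a partner, and the gamma-activated site (GAS). The genes they switch on encode proteins that block viral replication, sense viral RNA and cut proteins into peptides for display on MHC class I. The intestinal epithelium lies against microbes and food antigens and is a known site of interferon-stimulated gene expression.

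Promoter sequences of the members, from RefSeq on GRCm38.p6, are shown because the ISRE and GAS are elements of this kind of sequence. The table gave 41 promoter windows for 36 of the 49 genes, each running from 250 bases before to 50 bases after a start. The letters GAAA, any 2 bases and GAAA again, searched on both strands as an ISRE-like motif, were present in 17 of the 41 windows (41.5%), and in 3.44% of all 32851 windows. The palindromic letters TTCNNNGAA, a GAS-like motif that can overlap the other, were present in 8 of the 41 windows (19.5%) and in 8.30% of all windows. The 150 bases before the start follow for 6 genes, shown as examples that held a match, with the matches in capitals. Isg15 (chr4:156200819-156200968, minus strand), a ubiquitin-like modifier, held 3 overlapping ISRE-like matches. Ifit1 (chr19:34640739-34640888, plus strand), which binds foreign RNA, held 2, and Rsad2 (chr12:26456453-26456602, minus strand), the antiviral enzyme viperin, held 1. Oas1a (chr5:120907526-120907675, minus strand), which makes a second messenger on double-stranded RNA, held 2 overlapping ISRE-like matches and 1 GAS-like match. Irf1 (chr11:53769864-53770013, plus strand), a transcription factor, and Psmb8 (chr17:34198045-34198194, plus strand), a subunit of the immunoproteasome, held 1 GAS-like match each.
Isg15: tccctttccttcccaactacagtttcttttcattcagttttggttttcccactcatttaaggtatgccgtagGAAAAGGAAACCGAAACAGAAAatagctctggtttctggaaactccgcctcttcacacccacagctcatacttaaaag
Ifit1: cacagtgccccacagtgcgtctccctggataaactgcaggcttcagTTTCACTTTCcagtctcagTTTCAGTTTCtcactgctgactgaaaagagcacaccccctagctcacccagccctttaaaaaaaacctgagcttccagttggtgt
Rsad2: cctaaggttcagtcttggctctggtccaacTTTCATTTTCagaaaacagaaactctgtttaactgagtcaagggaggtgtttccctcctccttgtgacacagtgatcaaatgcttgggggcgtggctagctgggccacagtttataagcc
Oas1a: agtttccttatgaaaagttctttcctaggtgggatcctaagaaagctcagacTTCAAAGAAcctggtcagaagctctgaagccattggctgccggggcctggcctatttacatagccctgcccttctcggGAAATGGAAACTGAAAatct
Irf1: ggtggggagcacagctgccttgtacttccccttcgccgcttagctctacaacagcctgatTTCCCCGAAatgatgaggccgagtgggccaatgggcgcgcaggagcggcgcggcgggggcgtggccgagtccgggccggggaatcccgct
Psmb8: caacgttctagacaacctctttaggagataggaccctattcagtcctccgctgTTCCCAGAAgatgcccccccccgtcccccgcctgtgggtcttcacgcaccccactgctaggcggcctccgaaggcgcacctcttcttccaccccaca

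Levels are in FPKM, fragments scaled to transcript length and library, rescaled here to a common median ratio. Changes are on the log2(FPKM + 1) scale, which understates the change of genes near or below 1 FPKM, and a gene passed at an adjusted p under 0.05 in limma with Benjamini-Hochberg adjustment over all genes tested. The files hold no counts, so depth was not known. The deposited bounds gave the members a median width on either side of 11.1 to 33.1% of the value per library. Records with a symbol held 16.8 to 60.2% of the FPKM sum, and rescaling factors lay between 0.864 and 1.38. Markers of stomach, small intestine, pancreas and liver were followed in tissues of other organs. In 8 pairs, such a list with at least 3 genes at 1 FPKM or more differed between the paired libraries by a median of more than 1 on the log2 scale (colon at P5, bottom intestine at P5, top intestine at P1 and P5, rectum at P5, bottom stomach at P10, whole stomach at P1 and P5). Lists with only 2 such genes passed that limit in bottom intestine at P1 and P20. Large bowel markers were not part of this rule. Their median differed by -1.57 in bottom intestine at P20 (3 genes) and by 1.38 in top intestine at P5 (6 genes).

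Across all 16 pairs, 8 of the 42 members tested were lower in percc1-/- tissue and 0 were higher, where 0.497% of the 13084 genes tested were lower and 0.390% higher. In all, 40 of the 42 had a negative log2 change, as did 50.4% of all genes, with a median of -0.31 against -0.0009 over all genes. At an unadjusted p under 0.05, 34 of the 42 were lower, against 6.96% of all genes. Of the 15 antiviral effectors 12 were tested and 2 fell, and of the 6 other induced genes 3 fell. Irf1 fell among 2 tested transcription factors, Usp18 among 4 genes of ISG15 conjugation and Gbp3 among 6 defence GTPases. None of the 4 RNA sensors, 5 immunoproteasome genes or 3 tested peptide-loading genes passed. The RNA sensors were not set apart by this, since 4 of 4 were lower at an unadjusted p under 0.05 (median -0.35). That held for 11 of the 12 antiviral effectors (median -0.35). It also held for 3 of the 5 immunoproteasome genes (median -0.16) and 2 of the 3 peptide-loading genes (median -0.12).

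Rtp4, a chaperone of receptor trafficking that interferon induces, was the member with the smallest p. Its lowest, median and highest levels were 0.423, 2.51 and 9.25 FPKM in percc1-/- libraries and 0.717, 4.62 and 16.4 FPKM in wild-type libraries. The ranges overlapped across organs, but the percc1-/- library was the lower one in 16 of 16 pairs (log2 change -0.60 ± 0.08 SE, adjusted p = 0.000645 in limma). Irf1, which drives transcription of many interferon-stimulated genes, was also lower in 16 of 16 pairs. It averaged 14.6 ± 8.34 FPKM in percc1-/- and 19.1 ± 10.2 FPKM in wild-type libraries (SD, n = 16 each), a log2 change of -0.37 ± 0.06 SE (adjusted p = 0.0029 in limma). Mx2, a dynamin-like GTPase, was lower in 16 of 16 pairs as well, at 1.27 ± 1.78 FPKM in percc1-/- and 2.89 ± 2.76 FPKM in wild-type libraries (SD, n = 16 each; log2 change -0.69 ± 0.16 SE, adjusted p = 0.0492 in limma). Over all genes, 0.0764% were lower in every pair.

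Gbp3, a guanylate-binding GTPase of defence inside cells, averaged 2.05 ± 0.91 FPKM in percc1-/- and 3.98 ± 2.30 FPKM in wild-type libraries (SD, n = 16 each; log2 change -0.62 ± 0.10 SE, adjusted p = 0.0044 in limma). Xaf1, which promotes cell death and is induced by interferon, averaged 4.88 ± 2.28 FPKM in percc1-/- and 8.96 ± 5.61 FPKM in wild-type libraries (SD, n = 16 each; log2 change -0.65 ± 0.11 SE, adjusted p = 0.0068 in limma). Oasl2, a relative of the 2′-5′ oligoadenylate synthetases, fell by 0.59 on the log2 scale, Ifi44 by 0.54 and Usp18, the protease that takes ISG15 off its targets, by 0.45. Each of these 5 genes was lower in 15 of 16 pairs. In the plot of their levels, most lines slope upward towards the wild-type library.

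**Figure D1:**
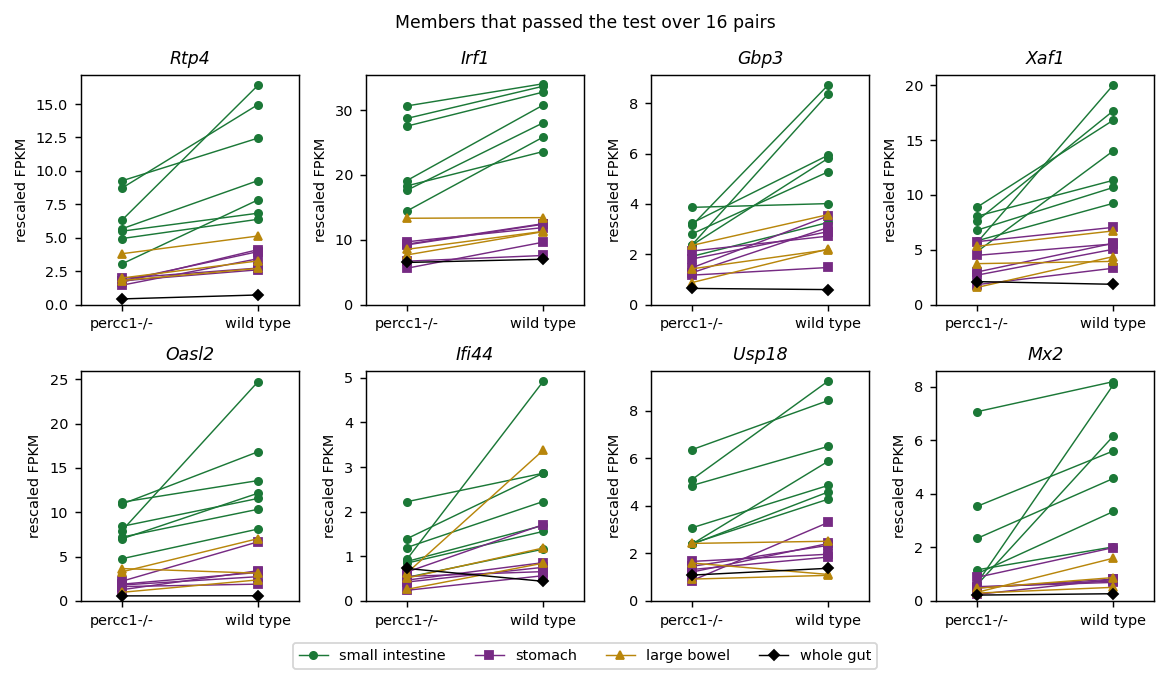
Rescaled FPKM (y axis) of the 8 members that passed over 16 pairs, percc1-/- on the left and wild type on the right of each panel; each line joins the 2 libraries of a pair and colours give the organ. Rtp4, Irf1 and Mx2 are lower in the percc1-/- library of all 16 pairs, and the other 5 genes in 15 of 16.

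These calls depended on which pairs entered. The count of members that passed in limma was 0 once the 8 pairs picked out by lists of at least 3 markers were left out. There 41 of 43 members tested had a negative change (median -0.26) and 18 had an unadjusted p under 0.05, against 7.55% of all genes. It was also 0 without the 2 pairs picked out by shorter lists as well, where 37 of 44 members had a negative change (median -0.18) and 12 had an unadjusted p under 0.05, against 8.54% of all genes. The count was 1 without the P1 pairs, 2 without the P5 pairs and 0 when pair differences were first averaged within stages (median -0.27). Those averages gave every stage the same weight, also E14.5 with its 1 pair, and were fitted in limma without the trended prior. Without the pair as a block the count was 3. Leaving out 1 pair at a time gave 6 to 8, with the call of Mx2 lost in 15 of 16 omissions and that of Usp18 in 4.

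The members' median difference was negative in all 16 pairs, and ranged widely. It was -0.91 in top intestine at P1, where 45 of 45 members measured were lower in the percc1-/- library, and -0.59 in bottom intestine at P5, where 44 of 46 were lower. Next came whole stomach at P1 (-0.47), bottom intestine at P20 (-0.43) and bottom intestine at P1 (-0.40). The median was nearest 0 in whole gut at E14.5 (-0.02), colon at P5 (-0.03) and whole stomach at P5 (-0.04). The median over all genes lay between -0.03 and 0.02 in every pair. In the heat map of these differences, columns varied within each organ. Top intestine at P15 had a median of -0.15 and whole stomach at P5 one of -0.04, while whole stomach at P1 had one of -0.47.

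**Figure D2:**
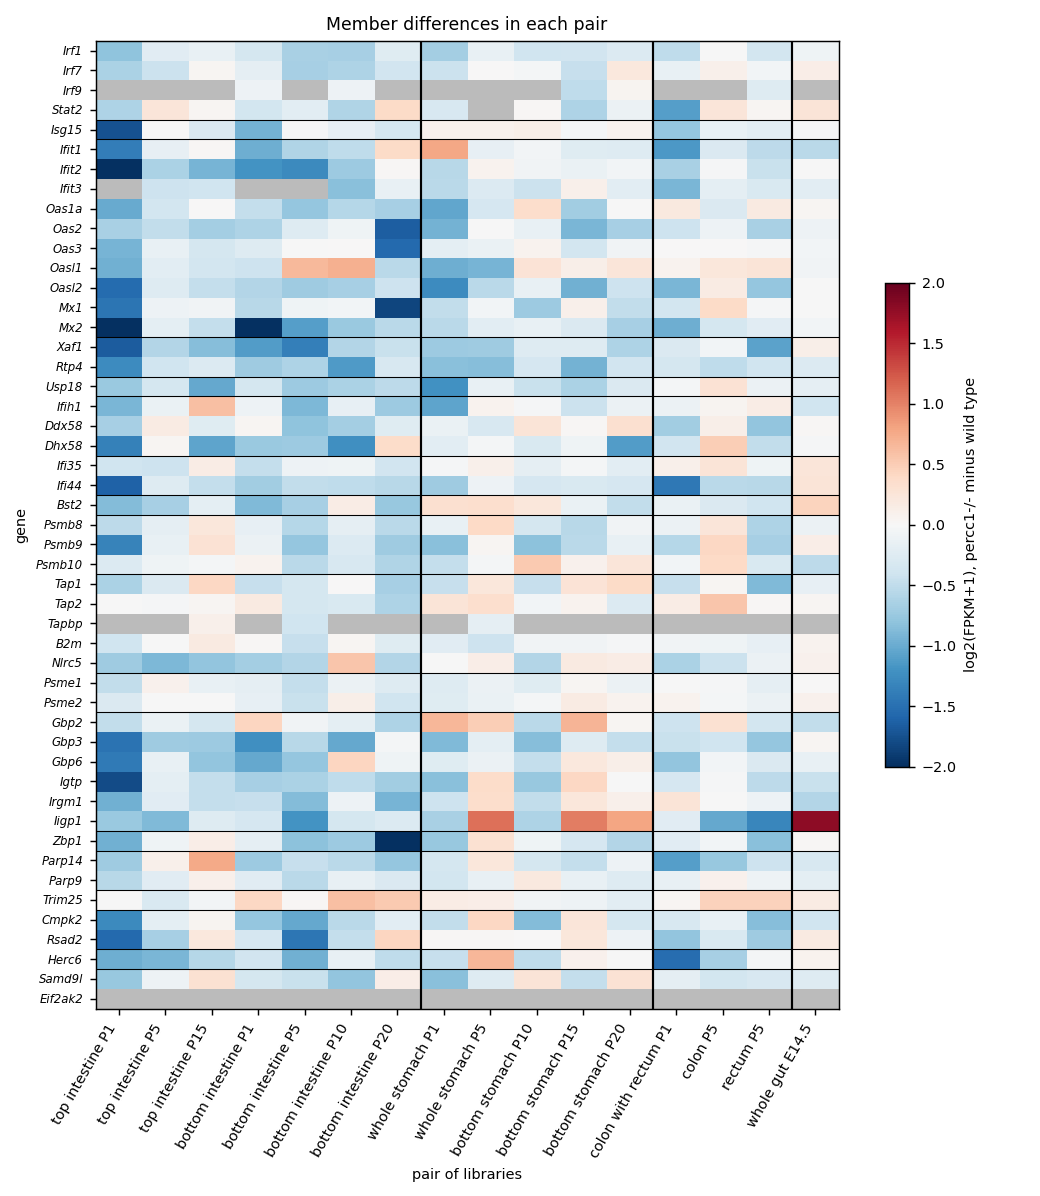
Difference in log2(FPKM + 1), percc1-/- minus wild type, for the 49 members (rows, grouped by role) in the 16 pairs (columns, grouped by organ); grey marks values missing because the record was shared. Top intestine at P1 is lower in all 45 members measured, with a median of -0.91.

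In small intestine alone, 42 of 43 members tested had a negative change, as did 51.0% of all genes, with a median of -0.46. None passed, where 0.117% of 12772 genes did, and at an unadjusted p under 0.05 in limma 32 of 43 were lower, against 4.85% of all genes. Xaf1 had lowest, median and highest levels of 4.83, 6.79 and 8.89 FPKM in percc1-/- libraries and 9.24, 14.03 and 20.06 FPKM in wild-type libraries. The 2 groups of 7 did not overlap, as held in this direction for 0.172% of all genes (log2 change -0.94 ± 0.15 SE, adjusted p = 0.0609 in limma). Usp18 reached an adjusted p of 0.0771 in limma and Herc6, the mouse ligase that attaches ISG15, 0.122. In all 7 pairs, 14 of 43 members were lower, against 1.81% of all genes. Trim25, which helps RNA sensors signal, was the one member with a positive change (log2 change 0.17).

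In the same small intestine libraries, the summed level of 4 B cell markers was lower in percc1-/- tissue in 7 of 7 pairs (0.422 to 6.27 FPKM in percc1-/- and 0.786 to 11.4 FPKM in wild type), with Ms4a1 listed at 0 in some libraries. At P1 none of these B cell markers reached 1 FPKM in top or bottom intestine. The sum of 6 general leukocyte markers was lower in 6 of 7 pairs (17.6 to 41.8 FPKM in percc1-/- and 28.3 to 48.3 FPKM in wild type), with Cd52 at 0 in some. The sum of 6 neutrophil markers was higher in 7 of 7 pairs (1.53 to 38.6 FPKM in percc1-/- and 1.17 to 8.07 FPKM in wild type), with S100a8, S100a9, Mpo and Elane at 0 in some. The sum of 6 epithelial markers ranged from 152 to 227 FPKM in percc1-/- and from 148 to 257 FPKM in wild-type libraries. Sums of 6 T cell markers and of 5 endothelial markers were each lower in 5 of 7 pairs and higher in 2. That of 8 macrophage markers was lower in 3 pairs and higher in 4. Over all 16 pairs, 2 of the 4 neutrophil markers tested were higher in limma, with a median of 0.96. Their sum was higher in 5 of 5 stomach pairs (9.80 to 110.1 FPKM in percc1-/- and 7.74 to 31.1 FPKM in wild type) and in 3 of 3 large bowel pairs (11.5 to 60.2 FPKM in percc1-/- and 4.81 to 9.93 FPKM in wild type), with Mpo, Elane or Camp at 0 in some. In large bowel the B cell sum (0.495 to 2.86 FPKM in percc1-/- and 1.69 to 6.37 FPKM in wild type), the sum of 6 T cell markers (4.52 to 6.08 FPKM in percc1-/- and 8.07 to 8.78 FPKM in wild type) and that of 5 endothelial markers (35.9 to 43.6 FPKM in percc1-/- and 42.7 to 60.5 FPKM in wild type) were lower in 3 of 3 pairs. In large bowel the leukocyte sum was higher in 2 of 3 pairs and lower in 1, as was the sum of 8 macrophage markers. Among all genes tested there, 17.5% were lower in every pair. In stomach the B cell and T cell sums were each lower in 3 of 5 pairs and higher in 2. The part of these shifts in the members' differences was not tested. In bulk tissue, fewer cells of a type and less RNA per cell cannot be told apart.

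In stomach, 0 of 40 members passed in limma (0.0226% of all genes did), 8 were lower at an unadjusted p under 0.05 (2.13% of all genes were), and 32 had a negative change (median -0.16; 50.9% of all genes). Rtp4 was 1.45, 1.67, 1.77, 1.78 and 1.96 FPKM in percc1-/- stomachs and 2.60, 2.73, 3.43, 3.96 and 4.11 FPKM in wild-type stomachs. Usp18 was 0.856 to 1.66 FPKM in percc1-/- and 1.85 to 3.31 FPKM in wild-type stomachs. Both groups were apart for these 2 of 40 members, as for 0.196% of all genes in this direction. In large bowel, 0 of 40 members passed in limma (0.0150% of all genes did), 7 were lower at an unadjusted p under 0.05 (5.45% of all genes were), and 31 had a negative change (median -0.27; 51.8% of all genes). The genotype difference was less negative in stomach than in small intestine for 38 of 42 members and more negative for 4, where 49.8% of all genes had the more negative sign (median over the members 0.28). Levels of most members were lower in stomach than in small intestine, and the log2(FPKM + 1) scale shrinks changes at low levels. The part of this scale effect in that count was not tested. No member passed the interaction test in limma (0.0153% of all genes did), and 5 had an unadjusted p under 0.05 (4.69% of all genes). Likewise 0 of 43 members passed in limma for the interaction of genotype and age in small intestine (0% of all genes did), and 2 had an unadjusted p under 0.05 (5.86% of all genes). The genotype difference, older minus younger, was positive for 35 members and negative for 8, with a median of 0.25.

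Other genes of the pathway were followed as lists. Of 26 other interferon-stimulated genes tested over all pairs, 3 were lower and 0 higher, with a median of -0.15, and 13 had an unadjusted p under 0.05 in either direction, against 13.2% of all genes. They were Parp12 (log2 change -0.50, adjusted p = 0.0155 in limma), Ifi27l2a (-0.58, adjusted p = 0.0438) and Gbp7 (-0.36, adjusted p = 0.0453). None of 9 receptor and JAK genes, 8 signal factors, 7 sensors and adaptors, 7 MHC class I genes or 13 constitutive proteasome genes passed. At an unadjusted p under 0.05 these counts were 1, 1, 1, 1 and 0. Their medians lay between -0.08 and -0.004. Of 9 interferon genes listed 1 was tested, Ifnk.

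Larger differences were measured between organs. In stomach 37 of 42 members were lower than in small intestine and 0 were higher, where 22.3% of 13047 genes were lower and 26.0% higher. The median log2 change was -0.94, against 0.02 over all genes. Ifit1 averaged 1.53 ± 0.92 FPKM in stomach (SD, n = 10) and 19.0 ± 5.78 FPKM in small intestine (SD, n = 14), a log2 change of -2.95 ± 0.16 SE (adjusted p = 9.2e-12 in limma). Its highest stomach library (3.81 FPKM) lay below its lowest small intestine library (10.1 FPKM). Irf7, the factor that amplifies type I interferon responses, averaged 3.79 ± 0.70 FPKM in stomach (SD, n = 10) and 19.9 ± 5.12 FPKM in small intestine (SD, n = 14; log2 change -2.06). Zbp1, a sensor of Z-form nucleic acid, had a log2 change of -2.26, Isg15 of -1.69 and Rsad2 of -1.66. The organs did not overlap for 12 of 42 members, against 4.38% of all genes in this direction.

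All 5 immunoproteasome genes and all 3 tested peptide-loading genes were among the 37. Psmb8 averaged 4.001 ± 1.34 FPKM in stomach (SD, n = 10) and 12.1 ± 2.88 FPKM in small intestine (SD, n = 14), and Psmb9 had a log2 change of -1.37. The 13 constitutive proteasome genes tested had a median of 0.06, and 1 was lower. The 5 members that did not pass were Bst2 (log2 change -0.25), Iigp1 (-0.37), Gbp2 (0.11), Oasl1 (0.07) and Mx1 (0.02). Oasl1, an inhibitor of Irf7 translation in the mouse, averaged 11.3 ± 4.86 FPKM in stomach (SD, n = 10) and 9.40 ± 2.62 FPKM in small intestine (SD, n = 14). It was also the one member among 42 whose highest wild-type library was not a small intestine one; 41.1% of all genes peaked in small intestine in wild type. In the same comparison 3 of 6 leukocyte markers were lower in stomach, with a median over the 6 of -0.27. Of the markers tested, 2 of 2 for T cells, 1 of 1 for B cells, 1 of 4 endothelial and 2 of 4 epithelial ones were also lower. Macrophage markers went both ways (2 of 5 higher, 1 lower), and 3 of 4 neutrophil markers were higher (median 1.24). The part of these differences in the members' values was not tested.

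**Figure D3:**
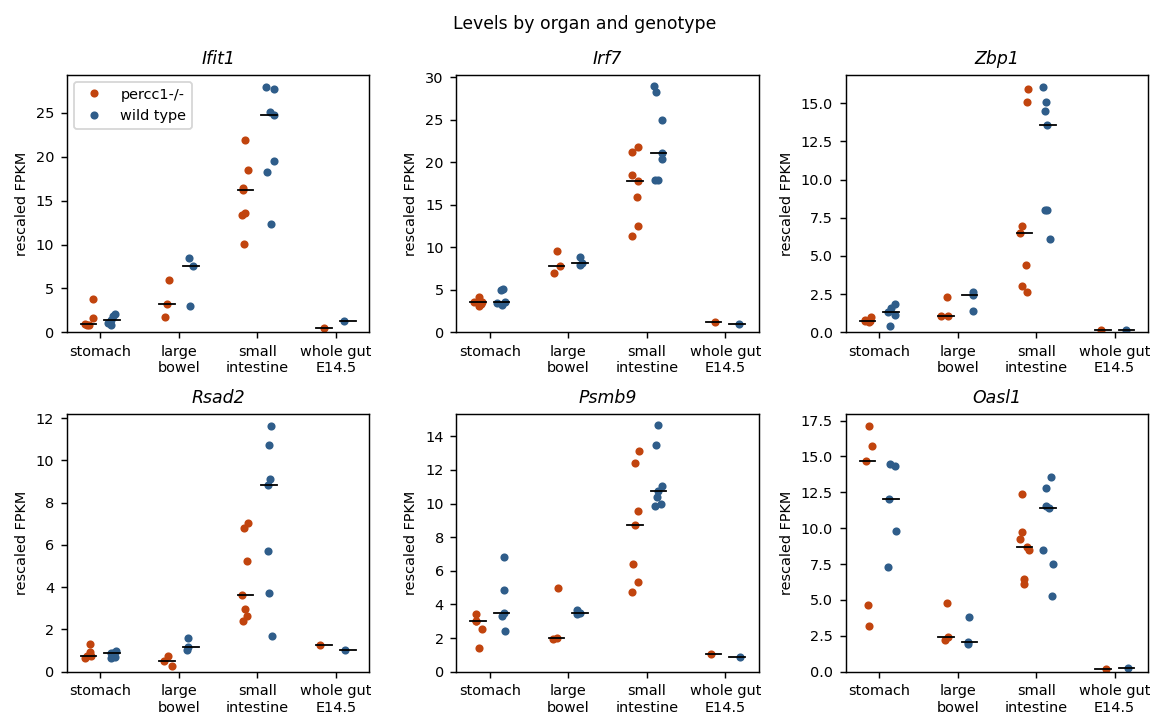
Rescaled FPKM (y axis) of 6 members by organ, percc1-/- in orange left of wild type in blue; each point is a library and bars are medians. Ifit1 is at most 3.81 FPKM in stomach and at least 10.1 FPKM in small intestine, while Oasl1 spans 3.21 to 17.1 FPKM in stomach and 5.25 to 13.5 FPKM in small intestine.

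In large bowel at P1 and P5, 31 of 42 members were lower than in bottom small intestine of the same stages and 0 were higher, where 12.5% of 13128 genes were lower and 13.5% higher. Rsad2 averaged 0.876 ± 0.48 FPKM in large bowel (SD, n = 6) and 7.86 ± 3.39 FPKM in bottom small intestine (SD, n = 4; log2 change -2.16 ± 0.19 SE, adjusted p = 0.000434 in limma). Ifit1 had a log2 change of -1.90, Isg15 of -1.40 and Oasl1 of -1.38. Of 6 leukocyte markers 1 was higher in large bowel and 0 were lower, with a median over the 6 of 0.33. The groups did not overlap for 17 of 42 members, against 9.43% of all genes in this direction. The count fell to 5 without the colon and rectum pair at P1 and to 4 without the bottom intestine pair at P1, with medians over the members of -0.59 and -0.61, against -0.81 with every pair. Between the top and bottom parts of the small intestine at P1 and P5, 0 of 43 members passed in limma (0.00782% of all genes did) and 5 had an unadjusted p under 0.05 (6.71% of all genes). Zbp1 was the member with the smallest p there, at 12.8 ± 4.34 FPKM in the top and 6.01 ± 2.15 FPKM in the bottom part (SD, n = 4 each; adjusted p = 0.707 in limma).

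Age was compared within organs. In small intestine at P10 to P20 against P1 and P5, 1 of 43 members was higher and 3 were lower, where 3.47% of 12772 genes were higher and 2.47% lower. Gbp2 averaged 4.72 ± 1.40 FPKM in older (SD, n = 6) and 2.84 ± 0.48 FPKM in younger libraries (SD, n = 8; log2 change 0.50). Rtp4 (log2 change -0.69), Oas1a (-0.65) and Bst2 (-0.60), which tethers budding virus to the cell, were lower. With 1 pair left out, the call of Gbp2 was lost in 7 of 7 omissions, those of Oas1a and Bst2 in 5 and that of Rtp4 in 4. The count was 0 in wild-type libraries alone, and 0 without the pair of bottom intestine at P1, top intestine at P15 or top intestine at P5. It was 1 without bottom intestine at P20 or top intestine at P1, and 2 without bottom intestine at P10. In stomach, age cannot be told apart from the part dissected, since the younger libraries were whole stomachs and the older ones bottom parts. There 3 of 40 members were higher in older libraries and 1 was lower, where 8.07% of 13266 genes were higher and 9.07% lower. Oasl1 was 12.03 to 17.1 FPKM in older and 3.21 to 9.81 FPKM in younger stomachs, with no overlap, as for 8.07% of all genes in this direction (log2 change 1.203 ± 0.22 SE, adjusted p = 0.00587 in limma). The count was 0 in wild-type stomachs alone, 1 without whole stomach at P1, and 2 without bottom stomach at P10, P15 or P20. Between P5 and P1 in small intestine and whole stomach, 0 of 43 members passed in limma (0% of all genes did) and 3 had an unadjusted p under 0.05 (10.2% of all genes).

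The whole gut pair at E14.5 had no replicate and is given as values. For 18 of 42 members both embryonic libraries lay below all 30 postnatal ones, against 8.38% of all genes. Irf7 was 1.21 FPKM in the percc1-/- and 1.01 FPKM in the wild-type whole gut, and Zbp1 was 0.170 FPKM in the percc1-/- and 0.149 FPKM in the wild-type one. Among members of at least 5 FPKM in either library, Irgm1, a GTPase that regulates autophagy, had the largest difference on the log2(FPKM + 1) scale (-0.58), at 3.64 FPKM in percc1-/- and 5.94 FPKM in wild type. Iigp1, another of these GTPases and named here after its values were seen, was 4.19 FPKM in percc1-/- and 0.495 FPKM in wild type.

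Cells exposed to interferon replace 3 catalytic subunits of the proteasome, Psmb5, Psmb6 and Psmb7, with Psmb8, Psmb9 and Psmb10, which shifts the peptides produced. The ratio of each induced subunit to the one it replaces was therefore taken in each library, with Psmb5 read from the record it shares with Mir686 in all 32 libraries. Psmb9 over Psmb6 had lowest, median and highest ratios of 0.273, 0.434 and 0.723 in percc1-/- and 0.458, 0.630 and 0.736 in wild-type small intestine. In stomach they were 0.0843, 0.136 and 0.164 in percc1-/- and 0.121, 0.157 and 0.337 in wild type. Over 16 pairs the ratio was 0.759 times the wild-type one in percc1-/- tissue (log2 difference -0.40 ± 0.14 SE, lower in 11 of 16 pairs). The exact two-sided sign-flip permutation test gave p = 0.0154, or 0.0463 adjusted over 3 ratios. That call was lost in 10 of 16 omissions of 1 pair, with differences of -0.47 to -0.34.

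Psmb8 over Psmb5 had a log2 difference of -0.24 ± 0.11 SE (exact permutation p = 0.0526, adjusted 0.0790) and Psmb10 over Psmb7 one of -0.09 ± 0.10 SE (exact permutation p = 0.374). In the 7 small intestine pairs alone, no ratio passed (smallest exact permutation p = 0.109, adjusted 0.234). Older and younger small intestine did not differ beyond their spread in any ratio (exact permutation p = 0.602 to 0.846). The plot of ratios shows the spread within each organ.

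**Figure D4:**
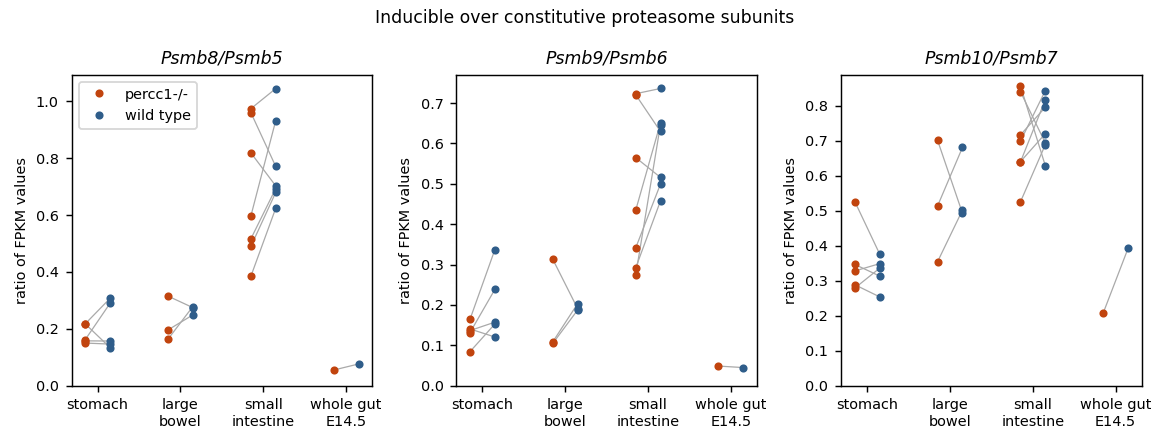
Ratio of each interferon-induced proteasome subunit to the constitutive one it replaces (y axis), by organ, percc1-/- in orange left of wild type in blue; lines join the 2 libraries of a pair. Psmb9 over Psmb6 reaches 0.723 in percc1-/- and 0.736 in wild-type small intestine, and at most 0.164 in percc1-/- and 0.337 in wild-type stomach.

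Psmb9, Psmb8, Tap1 and Tap2, the Tap genes forming the transporter that brings peptides to MHC class I, lie next to each other on chromosome 17, at 9.14 to 9.16 Mb from the positions the labels give for the targeted sequence (mm9). The starts of Psmb9 and Tap1 point away from each other with 225 bases between them (GRCm38.p6). None of the 4 passed for genotype over all pairs in limma. Psmb9 averaged 5.23 ± 3.83 FPKM in percc1-/- and 7.03 ± 4.36 FPKM in wild-type libraries (SD, n = 16 each; log2 change -0.38, adjusted p = 0.122 in limma). The log2 change was -0.20 for Psmb8, -0.22 for Tap1 and 0.00 for Tap2, and 3 of the 4 had an unadjusted p under 0.05, against 13.2% of all genes in either direction.

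Across the 32 libraries, the 5 genes whose log2 level was most like that of Psmb9 were Psmb8 (Pearson r = 0.97), Irf1 (0.94), Parp10 (0.93), Zbp1 (0.92) and BC006779 (0.92). For Ifit1 they were Gm7092, Zdhhc19, Clec2e, Dpyd and Uap1l1, with r between 0.96 and 0.97 and no member among them. The 32 libraries share organs, stages and genotypes, and are not independent points.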

How the data were processed

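Per the file headers, the values are FPKM with bounds, in Cufflinks gene tables deposited for each library. The submitters' processing notes name TopHat2 2.0.13, SAMtools 0.1.18 and Cufflinks 2.2.1, with mm9 as the build; no annotation version is named in the sources used here. Libraries were stranded and depleted of ribosomal RNA, per the labels' protocols. The highest named value was 62.5 to 214 FPKM per library.

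FPKM were rescaled by the median ratio over 10023 genes above 1 FPKM in every library. Shared and failed records were treated as missing, except that of Psmb5 in the ratios, and a fit used the genes present in each of its libraries. Genes averaging 1 FPKM or more were tested as log2(FPKM + 1) in limma 3.58.1 (R 4.3.3; trended, robust prior), with the pair as a block for genotype; the fits were tested on simulated data. Ratios were tested by exact permutation (NumPy 2.4.6, SciPy 1.17.1). Pairing came from region and stage in the labels. Named genes are, per comparison, up to 10 rises and 10 falls that passed, or the 5 smallest p where fewer than 5 passed, with up to 4 per other list. Members and lists were chosen with earlier results of these data known. Alternatives were another pseudocount (0.1), no filter, no rescaling, no block, other limma settings, shared records included, wild type only and each pair left out. A few results on other genes are not reported here.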

Additional observations from a re-analysis of the deposited data

Results flagged for a closer look

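Among 9 named members looked at in small intestine and in stomach (18 groups of pairs), 2 had 1 pair far from the others. Both lay in top intestine at P1. There Ifi44 had a difference of -1.61 on the log2 scale, percc1-/- minus wild type, with the nearest of the other 6 small intestine pairs at -0.69. Oasl2 had a difference of -1.53, with the nearest other pair at -0.72. Chance flags about 1 in 20 such groups. Markers of another organ also differed in this pair, and their part in it was not tested.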

How the results depend on the processing

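Of 166 recomputed counts of members, 143 stayed within 1.5 times the reported count. These include counts reported as 0 that stayed 0, as for genotype in stomach with 1 pair left out. For genotype over all pairs (8), the count was 3 without the pair block, 0 without the 8 or the 10 pairs picked out by another organ's markers, 1 without P1 pairs, 2 without P5 pairs, 0 with differences averaged within stages and 6 to 8 with 1 pair left out. The sets without those pairs or stages and the averaging were chosen after seeing the data. For genotype in small intestine it was 1 without the block (0 with it). For older against younger small intestine (4), it was 2 without rescaling, 0 in wild type alone and 0 to 5 with 1 pair left out. For older against younger stomach (4), it was 9 without rescaling, which moved the median of all genes to 0.19, 0 in wild type alone and 1 to 4 with 1 pair left out. For large bowel against bottom small intestine (31) it was 4 to 29, and for stomach against small intestine (37) 36 to 37. The cause was not tested, beyond the fewer libraries of each subset. With 1 pair left out, the log2 difference of Psmb9 over Psmb6 was -0.47 to -0.34 for genotype, that of Psmb8 over Psmb5 -0.30 to -0.20 and that of Psmb10 over Psmb7 -0.13 to -0.04. For age they were -0.083 to 0.28, -0.31 to 0.033 and -0.056 to 0.068, none of which passed. Adjusting over 2 ratios, without Psmb5 (chosen after seeing the data), gave an exact permutation p of 0.0309 for Psmb9 over Psmb6, and a pseudocount of 1 gave 0.0498 over 3 ratios. Of 1157 recomputed values of single genes and ratios, 1016 kept their direction and side of the threshold, 130 no longer passed, 6 newly passed and 5, all ratios for age that had not passed, changed sign. Depth is not known, and low members such as Nlrc5 carry wide bounds. Among members that passed for genotype, the median width on either side over libraries was 41.5% of the value for Mx2 and 34.0% for Ifi44. Counts of pairs in which these 2 genes were lower do not take the bounds into account.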
